A study of Mus musculus with 5 samples.

Results

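Sphingosine-1-phosphate (S1P) is made from sphingosine by the kinases Sphk1 and Sphk2, returned to sphingosine by the phosphatases Sgpp1 and Sgpp2, broken down for good by the lyase SPL, which the gene Sgpl1 encodes, and exported from cells by the transporter Spns2. These 6 genes were taken from the 22380 protein-coding genes of the mouse annotation GENCODE vM1, and histone H3 lysine 9 acetylation (H3K9ac) was described at each of them. Peaks centred no more than 10 kb from any annotated transcript start of a gene were assigned to it. By this rule 18 of the 34286 peaks called in DOP-treated cells and 17 of the 33355 peaks called in untreated cells belonged to the 6 genes. Sgpl1, Sphk1, Sphk2 and Sgpp1 had peaks in both lists, and no peak lay within 10 kb of Sgpp2 or Spns2 in either.

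All samples were STHdhQ111/Q111 cells on the C57BL/6 strain, a conditionally immortalized line of mouse striatal progenitors with mutant huntingtin, so that both conditions shared the mutation and the absence of serum. The DOP condition (2 samples) received 4 mM 4-deoxypyridoxine hydrochloride (DOP) in medium without serum for 24 h, and the SST condition (2 samples) received the vehicle in the same medium for 24 h. A single IgG sample of serum-starved cells was the negative control of the immunoprecipitation and is not analysed here. Each condition is represented by 1 peak list, so that no replicate error can be given, no difference between the lists was tested, and the read depth behind a peak is unknown. The samples of a condition came from the same cell line and not from separate animals. In a population of cells, acetylation in fewer cells and less acetylation per cell cannot be told apart.

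S1P acts outside the cell through G protein-coupled receptors and inside the cell as a messenger, and it favours survival and proliferation, whereas its precursors sphingosine and ceramide are linked to cell death. The lyase reaction is the exit from the whole sphingolipid pathway, because it splits S1P into products that are no longer sphingolipids. SPL needs the vitamin B6 coenzyme pyridoxal phosphate, and DOP, a vitamin B6 antagonist, inhibits it. Acetylation of H3 lysine 9 is a mark of active promoters and is found mostly around transcription start sites.

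The positions below refer to the assembly NCBIM37, which is mm9, and each peak is an interval of 200 bp named by its centre as the list gives it. The score of a peak has no definition in the lists. It is given as a percentile, the share of peaks of the same list with a lower score, and as a multiple of the median score of its list, which was 418.7 in the DOP list and 399.8 in the SST list.

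The sequences that bear most on the results are 2 peaks in the first intron of Sgpl1 and 1 peak in the first exon of Sgpp1, printed from the minus strand on which these genes lie. In the first, the highest-scoring SST peak region of Sgpl1 as it stands in the DOP list (chr10:60609878-60610077), capitals mark the 12-base words with 3 or more copies in the 1 kb to the left and right of the centre. They cover 169 of the 200 bases. The second (chr10:60609647-60609758) is the stretch of the highest-scoring DOP peak of Sgpl1 that lies outside annotated untranslated exons. The third (chr12:76836228-76836427) is the Sgpp1 peak with the larger difference in score between the lists.
Sgpl1 intronic peak at 60609977: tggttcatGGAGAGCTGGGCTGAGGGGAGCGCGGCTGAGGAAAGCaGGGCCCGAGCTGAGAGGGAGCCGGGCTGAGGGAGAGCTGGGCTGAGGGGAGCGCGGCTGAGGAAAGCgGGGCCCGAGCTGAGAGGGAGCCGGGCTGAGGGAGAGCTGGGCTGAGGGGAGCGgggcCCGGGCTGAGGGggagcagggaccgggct
Sgpl1 intronic peak at 60609658: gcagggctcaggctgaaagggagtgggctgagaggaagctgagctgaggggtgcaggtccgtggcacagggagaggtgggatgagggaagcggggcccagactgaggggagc
Sgpp1 exonic peak at 76836327: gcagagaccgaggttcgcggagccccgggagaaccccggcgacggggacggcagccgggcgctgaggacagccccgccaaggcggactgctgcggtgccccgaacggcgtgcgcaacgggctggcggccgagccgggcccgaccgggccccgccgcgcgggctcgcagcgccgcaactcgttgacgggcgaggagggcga

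The 200 bases before the outermost start of 4 genes are printed in the direction of the gene, to set the lyase promoter beside those of Sgpp2 and Spns2, which had no peak, and beside that of Sphk1, where the peaks lay elsewhere. Capitals mark the GC box GGGCGG, or CCGCCC where it lies on the other strand. The stretches are chr10:60610452-60610651 for Sgpl1 (minus strand), chr1:78306721-78306920 for Sgpp2 (plus strand), chr11:72303464-72303663 for Spns2 (minus strand) and chr11:116392039-116392238 for Sphk1 (plus strand).
Sgpl1 upstream: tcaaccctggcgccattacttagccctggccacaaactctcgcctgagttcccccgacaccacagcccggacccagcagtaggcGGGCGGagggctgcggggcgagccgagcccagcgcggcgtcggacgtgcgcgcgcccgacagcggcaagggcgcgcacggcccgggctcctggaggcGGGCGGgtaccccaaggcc
Sgpp2 upstream: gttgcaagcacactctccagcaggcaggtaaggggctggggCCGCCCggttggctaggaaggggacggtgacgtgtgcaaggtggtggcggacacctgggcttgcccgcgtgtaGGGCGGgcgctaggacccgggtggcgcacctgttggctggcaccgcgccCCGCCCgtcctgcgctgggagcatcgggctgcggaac
Spns2 upstream: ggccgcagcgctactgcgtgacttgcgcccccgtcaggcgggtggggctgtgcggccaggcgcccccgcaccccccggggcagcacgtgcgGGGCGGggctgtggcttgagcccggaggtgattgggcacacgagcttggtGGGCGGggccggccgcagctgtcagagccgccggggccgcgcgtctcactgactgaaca
Sphk1 upstream: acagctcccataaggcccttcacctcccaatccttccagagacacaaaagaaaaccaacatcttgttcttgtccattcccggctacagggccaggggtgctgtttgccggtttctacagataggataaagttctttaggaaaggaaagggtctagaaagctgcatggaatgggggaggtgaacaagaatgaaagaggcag

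A DOP peak was present at 4 of the 6 S1P genes, beside 57.7% of all protein-coding genes, and an SST peak at the same 4, beside 56.9%. Peaks in both lists are found at 55.3% of all protein-coding genes and peaks in neither at 40.7%, and 2 of the 6 S1P genes were in this class. Of the 18 DOP peaks, 15 overlapped an SST peak by at least 1 bp and 3 did not, whereas all 17 SST peaks overlapped a DOP peak. Over all peaks near protein-coding genes, 16.2% of DOP peaks and 13.3% of SST peaks were found in their own list only. At the S1P genes, 5 DOP and 4 SST peaks were unshared when a reciprocal overlap of at least 50% was required. With centres within 1 kb counted as shared, 0 DOP and 0 SST peaks were unshared. Peaks were more numerous in the DOP list at Sphk1 and Sphk2, as they were at 32.5% of the 13272 genes that either list gave a peak, and more numerous in the SST list at Sgpl1 and Sgpp1, as they were at 28.5%.

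**Figure D1:**
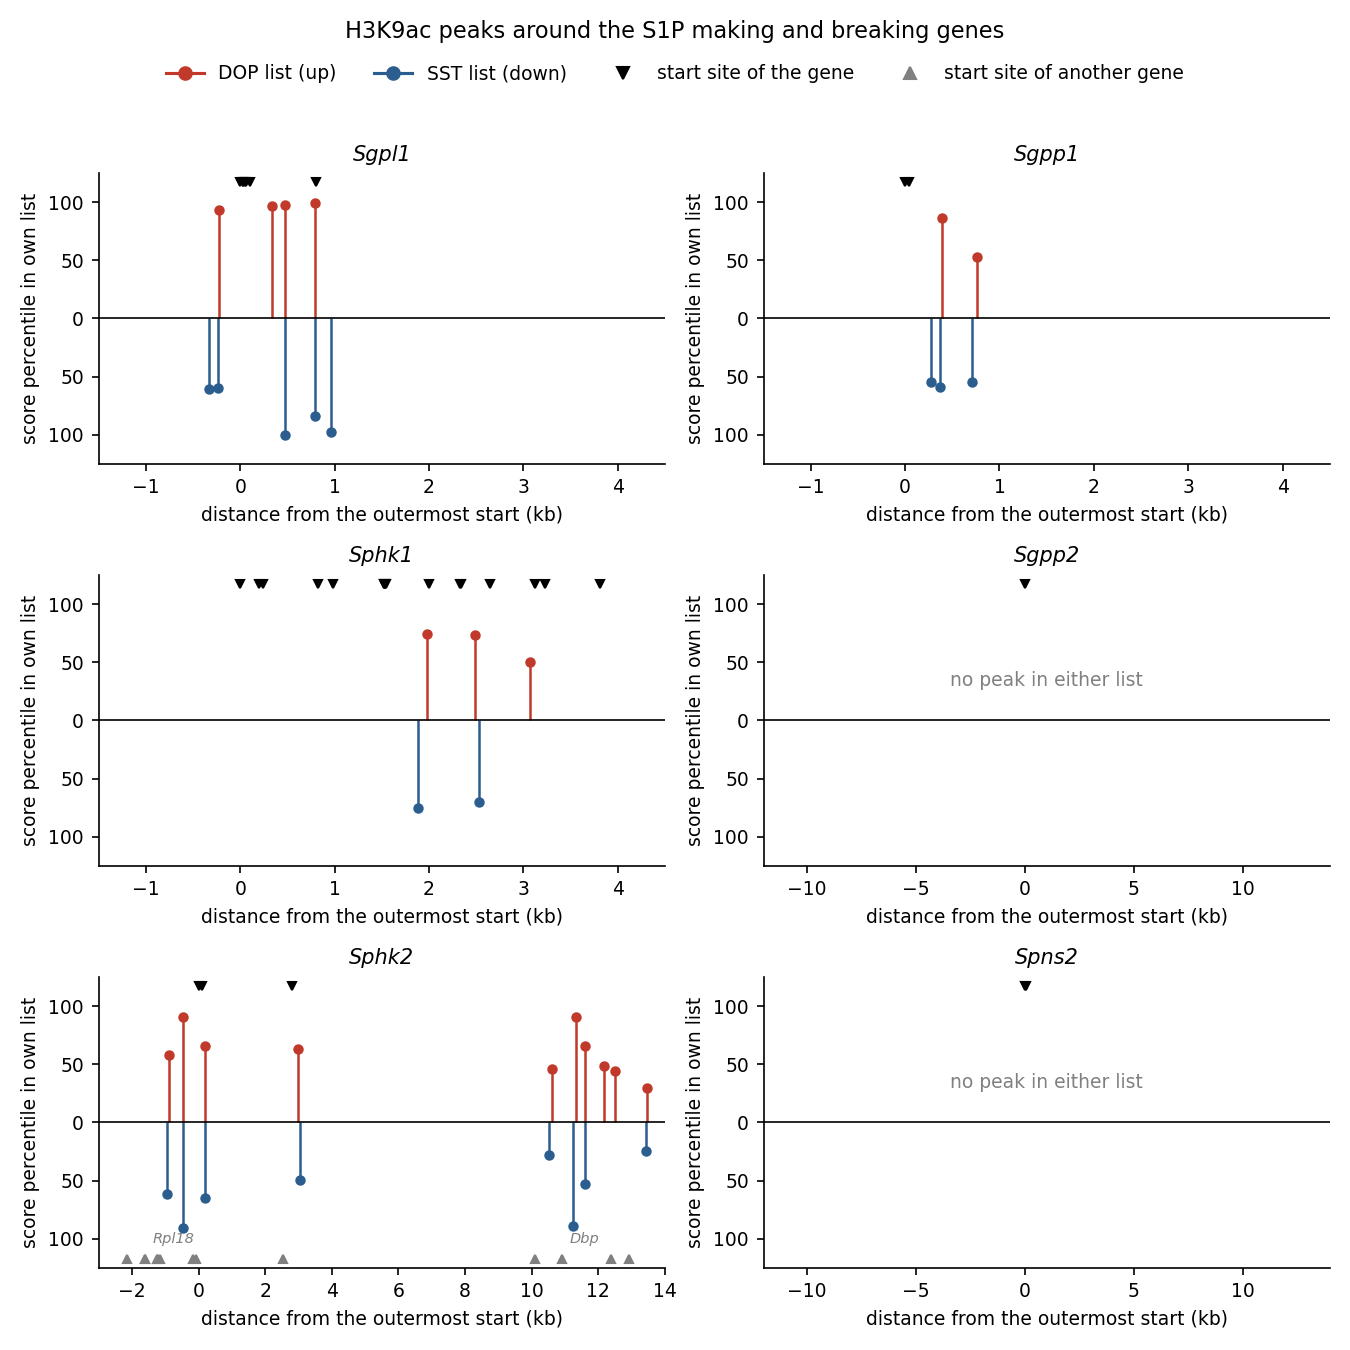
Peaks around each gene by distance from its outermost transcript start in kb (x, positive in the direction of transcription), with the score percentile of each peak in its own list (y), DOP upwards and SST downwards. The Sgpl1 peaks crowd within 1 kb of its start, the 3 Sphk1 peaks of the DOP list lie from 1977 to 3072 bp into the gene, Sphk2 has a second group of peaks at Dbp with 1 more beyond the 10 kb limit, and Sgpp2 and Spns2 have none.

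The kinase Sphk1 (chr11:116392239-116397988, plus strand, 17 transcripts) had no peak at its outermost start. Its peaks lay inside the gene, among a series of internal starts. Depending on the transcript, these peaks were in a 5′ untranslated exon, an exon without coding sequence or an intron, or upstream of it. In the DOP list they were centred at 116394216 (score 712.0, percentile 74.1), 116394723 (700.0, percentile 73.4) and 116395311 (421.0, percentile 50.3). In the SST list they were centred at 116394118 (706.0, percentile 75.3) and 116394771 (622.0, percentile 69.9). The first of these peaks in each list were nearly level, and so were the second. The DOP peak at 116395311 was not shared, and the nearest SST centre was 540 bp away. It lay 52 bp upstream of an internal start and in an intron of no transcript. The promoter at the outermost start, printed above, is poor in CpG (GC content 51.0%, CpG observed over expected 0.218). The peaks inside the gene had GC contents from 61.5% to 69.5%.

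The kinase Sphk2 (chr7:52964837-52973372, minus strand, 3 transcripts) had the most peaks of the 6 genes, 9 in the DOP list and 7 in the SST list, beside a median of 3 over all genes with peaks in each list. Only 2 in each list were nearer to a start of Sphk2 than to that of another gene. One was centred at 52973169 (DOP, score 584.0) and 52973167 (SST, score 553.0), 203 and 205 bp downstream of the outermost start, in a stretch where the untranslated exons of Sphk2 and Rpl18 overlap. The other was centred at 52970380 (DOP, score 549.0) and 52970317 (SST, score 395.0), at the start of the shortest transcript.

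The other Sphk2 peaks belonged by distance to its neighbours. Rpl18, which encodes a protein of the large ribosomal subunit, is transcribed the other way. It has starts at -69 and -155 bp relative to the outermost Sphk2 start, others from -1150 to -2153 bp, and another inside Sphk2 at 2545 bp. In each list 2 peaks were nearest to Rpl18. Its stronger peak was centred at 52973849 in the DOP list (score 1130.1, percentile 90.7) and at 52973853 in the SST list (1127.3, percentile 91.0). H3K9ac at such a divergent promoter cannot be ascribed to either gene. Dbp, a transcription factor that follows the circadian clock, lies beyond the 3′ end of Sphk2, and 5 DOP and 3 SST peaks were nearest to it. The 2 unshared DOP peaks of this region, at 52960859 (score 366.2, percentile 44.1) and 52961207 (401.8, percentile 48.1), lay at Dbp, 9718 and 9370 bp from the nearest Sphk2 start and close to the edge of the window. With the next peaks 10656 bp (DOP) and 10644 bp (SST) from a Sphk2 start, the first peak beyond the window lay in an untranslated exon of Car11, with a start of Dbp the nearest at 537 bp (DOP) and 525 bp (SST).

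**Figure D2:**
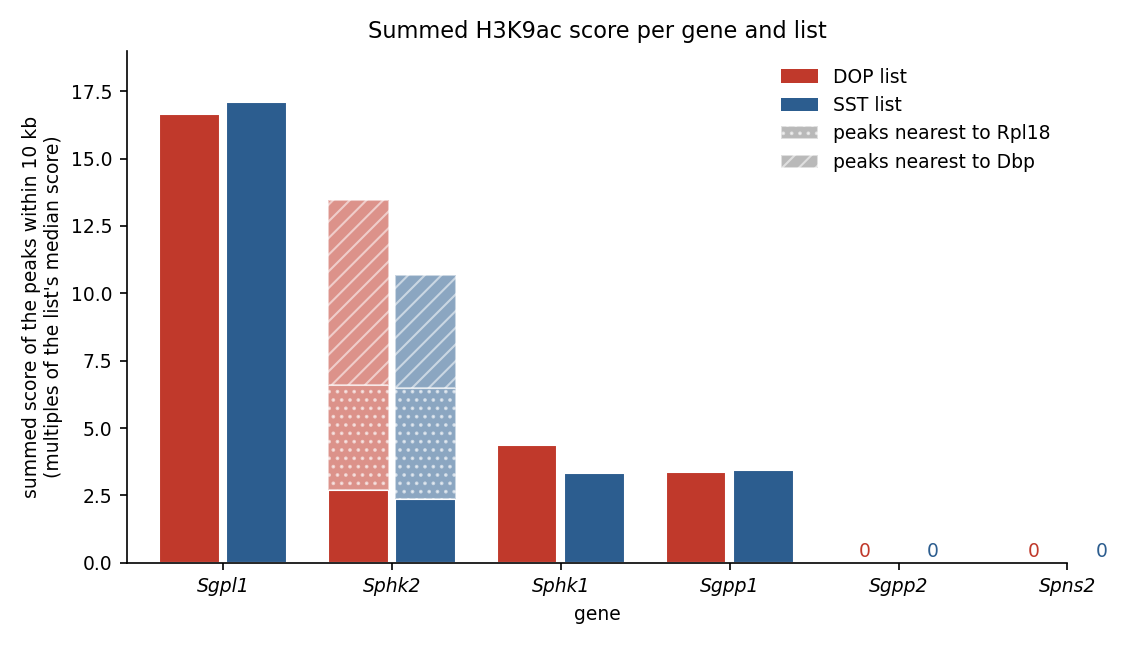
Summed score of the peaks within 10 kb of each gene (y, in multiples of the median score of the list), with the DOP list in red and the SST list in blue and the Sphk2 bars split by the gene whose start was nearest. Sgpl1 reached 16.6 in the DOP list and 17.1 in the SST list, and most of the Sphk2 difference lay in the hatched Dbp part, 6.86 against 4.20.

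Summed over the peaks nearest to Dbp, the score was 6.86 times the list median in the DOP list and 4.20 times in the SST list, a ratio of 1.63. The same ratio was 1.14 for the peaks nearest to Sphk2 and 0.950 for those nearest to Rpl18. The Dbp sums were taken over 5 DOP and 3 SST peaks. The 2 unshared DOP peaks there brought 0.875 and 0.960 times the list median to the DOP sum. The higher sum within 10 kb of Sphk2 in the DOP list (log2 ratio 0.34) was thus carried mainly by the Dbp end. The ratio for Sphk1 was 1.32 (log2 0.40), and there the unshared peak at 116395311 made the difference. Over the 12375 genes with peaks in both lists, the log2 ratio of the summed score had a median of 0.04, and 95% of genes lay between -0.51 and 0.74, a range that holds the values of all 4 genes with peaks. A summed score at least 2-fold higher in the DOP list was found at 0.97% of these genes and at least 2-fold lower at 0.525%, and at 0 of the 4.

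Among the genes that remove S1P, the phosphatase Sgpp1 (chr12:76815235-76836716, minus strand, 2 transcripts) had its peaks within the first exon of its longer transcript, over coding sequence. The DOP list held 2, centred at 76836327 (score 973.7, percentile 86.2) and 76835952 (443.3, percentile 52.6). The SST list held 3, at 76836439 (444.6, percentile 54.8), 76836348 (492.2, percentile 59.4) and 76836006 (439.2, percentile 54.2). The 2 SST peaks nearest to the start lay 91 bp apart, and the single DOP peak overlapped both. Paired with the nearer of these, 21 bp away, the DOP peak had a score 1.89 times higher relative to its list (log2 0.92). The sums of the peaks were close to equal, with 3.38 times the list median in the DOP list and 3.44 times in the SST list (log2 ratio -0.02). The DOP list thus had a single higher peak where the SST list had a pair of adjacent lower ones, and the interval printed above has 34 CpG in 200 bases.

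The second phosphatase, Sgpp2 (chr1:78306921-78416861, plus strand, 1 transcript), had no peak within its 109941 bp either. The nearest peaks to its start were 106315 bp away in the DOP list (percentile 10.3) and 113786 bp away in the SST list (percentile 53.8), and both were closest to Pax3. The transporter Spns2 (chr11:72265140-72303463, minus strand, 8 transcripts) had no peak in the gene. The nearest lay past its 3′ end in Mybbp1a, at 12033 bp (DOP, percentile 28.1) and 12401 bp (SST, percentile 82.8) from the innermost Spns2 start, and 47876 and 48244 bp from the outermost one. These peaks were just outside the window and at the start of another gene. A gene without a listed peak may still carry acetylation below the level of a call.

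**Figure D3:**
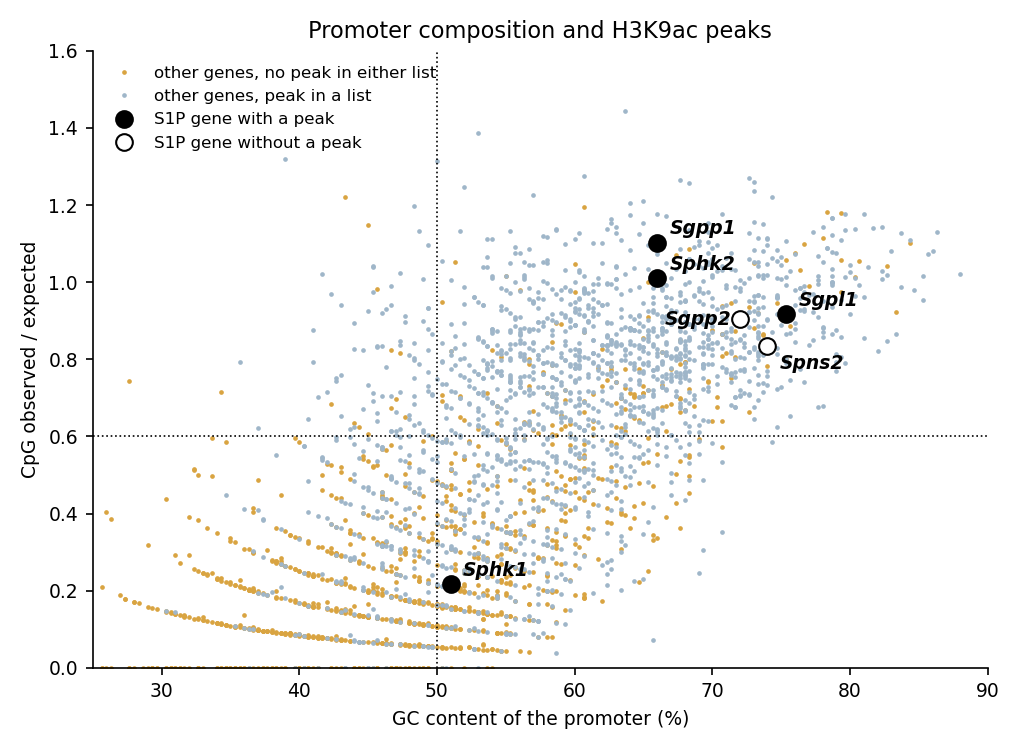
GC content (x, in percent) against CpG observed over expected (y) for the 300 bases around the outermost start of 3000 randomly drawn other genes (small points, coloured by whether they had a peak in a list) and of the 6 S1P genes (circles, filled where a peak was listed). Sgpp2 and Spns2 sit among the CpG-rich promoters above and to the right of the dotted limits of 50% and 0.6. Sphk1, with a GC content of 51.0%, lies below the limit of 0.6 only.

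Both genes without peaks have promoters of a kind that usually carried one. From 250 bases before to 50 bases after the outermost start, the GC content was 72.0% at Sgpp2 and 74.0% at Spns2, with CpG observed over expected at 0.906 and 0.833. The other S1P genes apart from Sphk1 had values from 66.0% to 75.3% and from 0.917 to 1.10. Of the 9389 promoters with a GC content of at least 50% and a ratio of at least 0.6, 87.4% had a DOP peak within 10 kb, 86.9% had an SST peak and 11.4% had neither. Of the other 12991 promoters, among them Sphk1, 36.2% and 35.3% had one. The GC box GGGCGG, searched on both strands, occurred 4 times in the Sgpl1 promoter, 3 times at Sgpp2, 2 times at Spns2 and 1 time at Sphk2, and at neither Sphk1 nor Sgpp1. It is held by 43.4% of all promoters of this length, by 76.3% of those above both limits and by 19.6% of the others.

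Sgpl1 (chr10:60561390-60610451, minus strand, 10 transcripts), whose product DOP inhibits, carried the highest scores of the 6 genes, and its peaks were in both lists. The DOP list held 4, with scores of 1257.7 at 60610675 (percentile 93.4), 1559.2 at 60610113 (percentile 97.0), 1692.7 at 60609977 (percentile 97.9) and 2456.1 at 60609658 (percentile 99.6). The SST list held 5, with scores of 507.4 at 60610781 (percentile 60.7), 493.0 at 60610683 (percentile 59.4), 3218.7 at 60609981 (percentile 99.8), 877.4 at 60609660 (percentile 83.6) and 1734.9 at 60609487 (percentile 97.9). In both lists the scores were higher in the gene than before its start. The highest Sgpl1 peak ranked 137 in the DOP list and 53 in the SST list, above the highest peak of 99.1% and 99.8% of the genes with a peak in the respective list.

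The peaks of Sgpl1 spanned about the same stretch in both lists. The upstream ones lay 224 bp (DOP) and 232 and 330 bp (SST) before the outermost start, outside any protein-coding gene. All 3 downstream DOP peaks, from 338 to 793 bp past that start, were in the first intron of 7 transcripts, and the one at 60609658 lay 12 bp before an internal start. Of the 3 downstream SST peaks, from 470 to 964 bp past the start, the one at 60609487 lay in the 5′ untranslated exon of the transcript that begins there. That peak, the SST peak at 60610781 and the DOP peak at 60610113 were in no matched pair, with the nearest centre of the other list 171, 106 and 132 bp away, and were counted as shared through overlapping edges.

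Single peaks at matched positions differed in score in both directions within this 1 kb, while the sums over overlapping peaks were close. Mutually nearest peaks with centres at most 100 bp apart gave 23072 matched pairs between the lists, 13 of them at S1P genes and 3 at Sgpl1. At the 60609658 and 60609660 pair, the DOP score was 2.67 times the SST score relative to the list medians (log2 1.42), above 99.2% of all pairs. At the upstream pair, 60610675 and 60610683, the ratio was 2.44 (log2 1.28), above 98.7% of pairs. Between these, at 60609977 and 60609981, the ratio was 0.502 (log2 -0.99), above only 2.20% of pairs and just within 2-fold. At each of these places a single peak of one list overlapped 2 of the other. Peaks of either list that overlap were therefore joined into stretches and their scores summed. Over the stretch with the 60609658 and 60609660 pair the DOP sum was 5.87 and the SST sum 6.53 times the list median (ratio 0.898), over that with 60609977 and 60609981 they were 7.77 and 8.05 (0.965), and over the upstream one they were 3.0 and 2.5 (1.2). None of the 3 sums was past 2-fold. What part the division of a stretch into peaks has in the differences between single peaks was not tested. Summed over all peaks of the gene the lists were level, with 16.6 times the list median in the DOP list and 17.1 times in the SST list (log2 ratio -0.04).

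**Figure D4:**
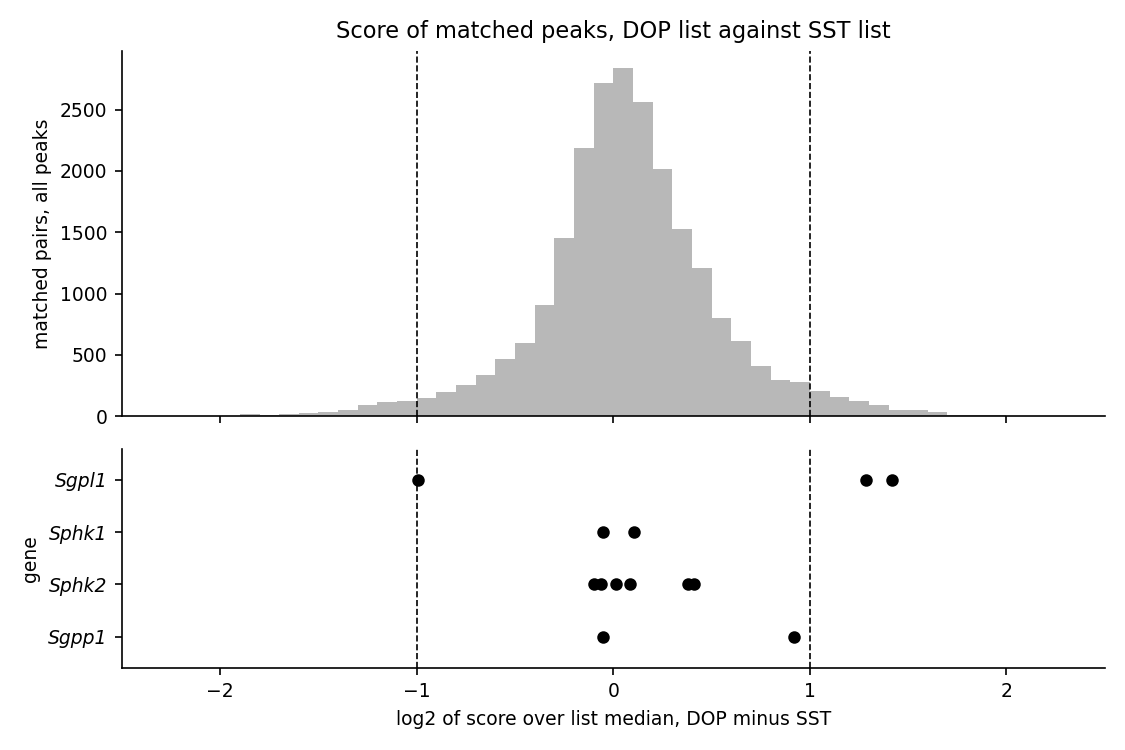
Top: number of matched pairs over all peaks (y) by the log2 ratio of the DOP to the SST score, each relative to its list median (x). Bottom: the 13 matched pairs of the S1P genes on the same axis, 1 point per pair, with dashed lines at 2-fold. The 3 Sgpl1 pairs lie at 1.42, 1.28 and -0.99, the Sgpp1 pair furthest out at 0.92, and the other 9 between -0.10 and 0.41, and each of these 4 outer pairs lies where one list has 2 peaks overlapping a single peak of the other.

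Over the 13 matched pairs of the S1P genes, 2 were at least 2-fold higher in the DOP list, both at Sgpl1, beside 3.29% of all pairs, and 0 were at least 2-fold lower, beside 2.15%. The other 11 were within 2-fold. Joined into stretches, 0 of 14 stretches of the S1P genes with peaks of both lists were at least 2-fold higher in the DOP list and 0 at least 2-fold lower, beside 0.605% and 0.188% of all 23953 such stretches. Of all pairs, 95% had log2 ratios between -0.95 and 1.09 with a median of 0.06. The matched centres of the S1P genes were from 2 to 98 bp apart with a median of 21 bp, against 26 bp over all pairs, a distance that the limit of 100 bp holds low. The other 5 DOP peaks and 4 SST peaks of these genes were in no pair, and their nearest centres in the other list were from 105 to 915 bp away.

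The intron of Sgpl1 in which its highest peaks lie contains tandem repeats. In the intronic sequence printed above, blocks such as the run from GGAGAGC onwards return after 68 bases, and 81.1% of the bases there are identical at that distance. Such 12-base words, with 3 or more copies in the surrounding sequence, made up 51.9% of the words of the peaks at 60609977 and 60609981, 13.8% at 60610113, 11.1% at 60609487 and 5.29% at 60609658 and 60609660. The share was 0 at the upstream Sgpl1 peaks and at the peaks of the other 3 genes. Over all peaks the share was 0 for 95.3% of the DOP list and 95.2% of the SST list, and reached 25% for only 0.586% and 0.663%. Short reads within such a repeat can be placed at more than one copy. What part this has in the scores and in their differences between the lists was not tested.

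The peaks at 60609977 and 60609981, the only ones of Sgpl1 with a repeat share above 25%, made up 4.04 of the summed 16.6 in the DOP list and 8.05 of the 17.1 in the SST list. The 3 peaks in each list with any repeated word made up 13.6 of the 16.6 and 14.6 of the 17.1. The highest DOP peak, at 60609658, with a share of 5.29%, ranked at percentile 97.8 of its list by repeat share. Among peaks with a repeat share of at least 25%, the median percentile was 33.5 in the DOP list and 31.6 in the SST list, and 22.4% and 16.7% of them were in the top 1% of their list.

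By number of peaks and rank of the highest, the genes most like Sgpl1 were Nfat5, Trappc6b and Cbx3, out of the genes with 4 DOP and 5 SST peaks of which all were shared. Their highest peaks were at percentile 99.8 and 99.8 for Nfat5, 99.8 and 99.7 for Trappc6b and 99.5 and 99.4 for Cbx3 in the DOP and SST lists. Across the S1P genes, the median percentile of the peaks was 69.4 in the DOP list and 61.2 in the SST list, against 55.2 and 55.1 over all peaks near protein-coding genes. Within 1 kb of a start of the S1P gene itself lay 13 of the 18 DOP peaks and 14 of the 17 SST peaks, and the other peaks, at the far end of Sphk2, were nearest to Dbp. Over all peaks near protein-coding genes, 86.9% and 87.7% lay within 1 kb of a start of any such gene, as did all of these once Dbp is counted. The peaks of the S1P genes had a median GC content of 64.8% (DOP) and 65.0% (SST) against 59.5% in both lists, yet a GC box was present in 2 of 18 and 2 of 17 of them, beside 28.5% and 29.3% of all peaks. The CCAAT box, the letters CCAAT on either strand, was present in 4 and 2, beside 13.9% and 13.6%.

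Around the S1P genes stand the 40 other genes of the pathway that were looked up, namely receptors, ceramidases, enzymes of ceramide synthesis and conversion, lipid phosphate phosphatases, carriers and vitamin B6 enzymes. Of these, 31 had a peak in both lists, 1 in the DOP list only and 8 in neither, so that 80.0% had a DOP peak, beside 57.7% of all protein-coding genes with a DOP peak, 55.3% with peaks in both lists and 40.7% with none. For each class, the gene with the most peaks over both lists together is named below. More peaks in the DOP list were found at 9 of the 32 genes with a peak and more in the SST list at 12, beside 32.5% and 28.5% of all genes that either list gave a peak. The median log2 ratio of the summed score was 0.03, beside 0.04 over all genes with peaks in both lists.

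Of the 5 S1P receptors, 4 had peaks in both lists, with the most at S1pr2 (4 in each), and S1pr3 had none. Of the 5 ceramidases, which release the sphingosine that the kinases use, 4 had peaks, with the most at Acer3 (3 DOP, 4 SST), and Asah2 had none. The ceramidase Acer2 has 2 entries in the annotation. The entry with 1 DOP and 1 SST peak was counted, here and in the totals above, and the other entry had no peak. Ceramide synthesis had peaks at 8 of 12 genes, with the most at Kdsr (4 DOP, 3 SST) and none at Sptlc3, Degs2, Cers3 and Cers4. Of the 8 genes that convert ceramide and sphingomyelin, 6 had peaks, with the most at the sphingomyelin synthase Sgms1 (9 DOP, 7 SST) and none at Sgms2 and Smpd3.

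All 3 lipid phosphate phosphatases, which also dephosphorylate S1P outside the cell, had peaks, with the most at Plpp1 (2 DOP, 3 SST). Aldh3a2, which oxidizes the aldehyde that SPL forms, had 2 DOP and 3 SST peaks. Of the other carriers and exporters, Apom, the S1P carrier of plasma lipoproteins, had 7 and 6, and Mfsd2b, an S1P exporter of red blood cells, had a single peak in the DOP list at percentile 13.2. All 3 vitamin B6 enzymes had peaks in both lists, with the most at Pdxp (2 DOP, 3 SST). Several of these counts may include peaks of neighbouring genes, as at Sphk2, and that was not separated here.

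The labelled cell type was checked on marker genes by the same rule, under which 55.3% of all protein-coding genes had peaks in both lists and 40.7% in neither. Of the neural progenitor genes reported here, Vim and Msi1 had peaks in both lists, and Nes, Sox2 and Pax6 had none in either. Of 4 ventral forebrain genes, Dlx1 had peaks in both lists and Dlx2 in the DOP list only, and of 8 genes of medium spiny neurons, Ppp1r1b and Foxp1 had peaks. Of 4 astrocyte genes S100b had peaks in both lists and Slc1a3 in the DOP list only, of 4 oligodendrocyte genes Mog in both and Mbp in the DOP list only, and of 3 microglial genes Aif1 alone. The peaks of S100b, Slc1a3, Mog and Mbp were low, with the highest at percentile 23.7. Those of Aif1 were high, with the highest of its 4 DOP peaks at percentile 98.1 and of its 5 SST peaks at 94.3, beside 98.01 and 93.96 for Vim. The peaks counted at Aif1 and the other marker genes may include those of neighbouring genes, as at Sphk2. That was not separated here, so a counted peak need not mark the marker gene itself.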

How the data were processed

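H3K9ac ChIP-seq of 2 DOP and 2 SST samples was deposited as 1 peak list per condition. Per their methods, the authors used Bowtie 2 for the alignment of single-end reads to mm9 and GPS for peak calling, whereas the submitters' processing notes name BWA 0.7.10 and the file headers name GEM. How the samples were combined and whether the IgG sample entered the peak call are not given in the sources used here. The deposited score of a peak has no stated definition. The positions of the intervals are used as the authors deposited them.

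The S1P genes, the other gene lists and the measures were chosen with earlier results of these data known. All 6 S1P genes are described with every peak. Of the other pathway genes, those with the most peaks in a list of genes, with peaks in 1 list or with none are named, and likewise the 3 genes with the same peak counts as Sgpl1 and the nearest top percentiles. Start sites and exons came from GENCODE vM1, and sequence from NCBIM37. CpG observed over expected is the CpG count times the length, divided by the product of the C and G counts. The functions were tested on 2000 simulated peaks, and 7 of 7 planted answers were recovered. Python 3.11.15, numpy 2.4.6, pandas 2.3.3 and matplotlib 3.10.9 were used. Alternatives were other windows, starts, score limits and rules of sharing.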

Additional observations from a re-analysis of the deposited data

How the results depend on the processing

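With 1 list per condition no replicate could be left out. No paired analysis was possible because the samples of a condition are joined in 1 list and no result comes from a test. The depth of the samples is unknown, and limits on what a peak list can miss cannot be given. Of 152 alternative values, 123 stayed within 1.5 times the reported one. These values overlap, as 84 of them are counts of single genes, and a 0 that stayed 0 was taken as unchanged. A score limit of 100 removed no peak of the S1P genes, whose lowest score was 223.0. The log2 ratios of the summed Sgpl1 score were counted as changed without use of the 1.5-fold limit. The number of S1P genes with a peak stayed at 4 in each list, apart from 3 with upstream peaks only, which left out Sgpp1, and 5 with a window of 20 kb, which reached Spns2. Upstream peaks, here those within 10 kb before any annotated start, internal starts included, numbered 10 (DOP) and 9 (SST). The DOP peaks nearest to a start of the S1P genes themselves numbered 11. The 3 unshared DOP peaks fell to 1 with a window of 1 kb or 5 kb, with upstream peaks only, with the outermost starts only and with the nearest start required, and to 0 when centres within 1 kb counted as shared. With a reciprocal overlap of 50% they rose to 5, and the unshared SST peaks rose from 0 to 4. Why the counts differed between these rules was not tested. Alternatives chosen after the data were seen left 2 matched pairs at least 2-fold higher in the DOP list with matching within 50 or 200 bp, with scores as deposited and with scaling by the mean score below percentile 99, and 0 when overlapping peaks were joined into stretches and summed. The log2 ratio of the summed Sgpl1 score changed from -0.039 to 0.028 with scores as deposited, to -0.015 with scaling by that mean and to 0.26 when only the 1 DOP and 2 SST peaks without any repeated word were summed.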
